A study of Homo sapiens with 19 samples.

Results

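The 31 genes described here encode receptors, adhesion proteins, sheddases and pump subunits of the plasma membrane, and they were chosen by symbol from 58051 human genes in the count tables. Each symbol matched 1 gene identifier, and each gene had at least 1 exon count. APP and KIT had too few counts to be tested, so 29 genes entered the tests. The study followed RNA between compartments of K562, a human erythroleukaemia line in long-established use, untreated in every group. Total RNA was sequenced from the nuclear wash, the nucleus, the cytoplasm and whole cells, with 4 libraries each, all depleted of ribosomal RNA. For the nuclear wash there were 3 further libraries in which that depletion was omitted. The labels do not say how the wash was prepared or whether the libraries came from separate cultures, so every p-value below measures spread among libraries, possibly technical spread alone. K562 is a single tumour-derived line, and all groups come from it.

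An mRNA for a plasma membrane protein is translated at the surface of the rough endoplasmic reticulum, a membrane that is continuous with the outer nuclear envelope. The first hydrophobic stretch of the nascent chain, a cleaved signal peptide or an uncleaved signal anchor, brings the ribosome and its mRNA to that membrane. The protein then travels through the Golgi to the cell surface. In erythroid cells, surface receptors of this kind receive erythropoietin, stem cell factor and insulin-like growth factor, and integrins hold precursors to the marrow matrix.

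The coding starts of 5 of the genes are shown, next to those of 2 cytosolic proteins that act beneath the membrane. The 5 proteins differ in the kind of targeting segment, which can lie partly or wholly beyond the bases shown. The coding starts lie on chromosomes 11, 10, 21, 11, 3, 10 and 12 of GRCh38 in the order shown. Each is the first 75 coding bases of a GENCODE release 29 transcript, 5′ to 3′, and capitals mark codons 2 to 25 with T at the middle position, which encode hydrophobic amino acids.
APLP2: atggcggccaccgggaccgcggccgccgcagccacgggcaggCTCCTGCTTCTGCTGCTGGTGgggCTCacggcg
ITGB1: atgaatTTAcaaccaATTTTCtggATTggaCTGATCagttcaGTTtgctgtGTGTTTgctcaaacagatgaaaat
IFNAR2: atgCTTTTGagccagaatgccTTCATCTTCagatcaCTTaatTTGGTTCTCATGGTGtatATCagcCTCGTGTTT
CD81: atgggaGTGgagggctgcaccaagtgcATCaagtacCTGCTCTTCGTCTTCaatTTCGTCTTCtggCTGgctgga
ATP1B3: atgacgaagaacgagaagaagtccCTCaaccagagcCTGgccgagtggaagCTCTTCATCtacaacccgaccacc
VCL: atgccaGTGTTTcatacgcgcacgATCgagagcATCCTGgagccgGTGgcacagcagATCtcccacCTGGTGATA
PTPN11: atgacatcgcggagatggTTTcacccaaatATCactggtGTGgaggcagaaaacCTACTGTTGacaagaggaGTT
APLP2, ITGB1 and IFNAR2 begin with a signal peptide, CD81 is a tetraspanin and ATP1B3 has a signal anchor. Over the 31 genes, the median share of codons 2 to 25 with T at the middle position was 37.5%, and the median share of A in the first 75 bases was 12.0%. Over 31 cytosolic partners of these receptors the medians were 25% and 24%, and over all 19325 coding genes they were 25% and 21.3%. The share of such codons lay above the median of all coding genes in 26 of the 31 receptor and adhesion genes, against 9 of the 31 cytosolic partners. IFNAR2 had the highest share of the 31, 62.5%. ATP1B1 and ATP1B3, the pump subunits with a signal anchor, had 16.7 and 20.8% and the highest share of A, 32.0% each. These shares describe the start of the coding sequence alone, and whether it reaches the anchor was not examined.

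The exon counts summed to 1373755 to 7955415 in a depleted library and to 923464 to 1801293 in an undepleted one. The nuclear RNA MALAT1 was higher in the nucleus than in the cytoplasm by a log2 fold change of 4.24, and GAPDH, a cytosolic enzyme, fell by 3.79. HSPA5, the chaperone of the endoplasmic reticulum lumen, was higher in the wash than in the cytoplasm by 2.05. The 3 nuclear RNAs listed as landmarks, MALAT1, NEAT1 and KCNQ1OT1, were higher there as well, by 1.76 to 1.90. MALAT1 had 21423, 15651, 5006 and 4753 CPM in the wash and 3371, 3313, 2532 and 3373 CPM in the cytoplasm, and wash replicates 1 and 2 were the higher ones. The part of nuclear RNA in the results below was not tested. All 10 genes listed as K562 identity genes had counts. Of 14 markers of other cell types, CDH5 was at 0 in all 16 depleted libraries. Their summed level was 334 to 456 CPM in the wash, 93.9 to 104 CPM in the nucleus, 235 to 289 CPM in the cytoplasm and 170 to 196 CPM in whole cells, with most counts from KRT18 and EPCAM. The marker sum was thus highest in the wash too, and its part in the results below was not tested.

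Together the 31 mRNAs took a larger share of the depleted wash libraries than of any other fraction. Their share of exon counts was 0.358 to 0.417% in the wash, 0.212 to 0.259% in the nucleus, 0.151 to 0.161% in the cytoplasm and 0.188 to 0.201% in whole cells. The 4 depleted wash libraries did not overlap those of any other depleted fraction. In the 3 undepleted wash libraries the share was 0.226 to 0.264%, below the depleted wash and overlapping the nucleus. These are shares of sequenced RNA, so more copies of these mRNAs in a fraction and fewer copies of other RNA cannot be told apart.

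Relative to the cytoplasm, 25 of the 29 tested genes were higher in the wash, none was lower and 4 were not called, with edgeR's quasi-likelihood test and Benjamini-Hochberg adjustment. Of all 15940 genes tested, 44.2% were called, 22.8% higher and 21.4% lower. The median log2 fold change was 1.25 over the 29 genes and 0.05 over all genes, with a range of -0.23 for IFNGR2 to 2.30 for NOTCH2. In 22 of the 29 the wash libraries all lay above the cytoplasm libraries in CPM, counts per unit of library size after TMM scaling, and in none did they all lie below, against 18.8% of all genes above and 19.4% below. With TMM the typical gene is placed at no change, and each value is a difference from that gene. Scaled by the yeast spike-ins instead, all 29 had negative values and 28 were called lower in the wash, against 14866 of all 15940 genes. The median was then -1.91, where all genes had a median of -3.10. The labels do not state how much spike-in was added per cell. With gene-body counts in place of exon counts, the wash over cytoplasm calls of CD81, CD151, TGFBR1 and IFNAR1 were lost.

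The amyloid precursor family is represented by APLP2, a membrane protein that is cut by the same secretases as APP. APLP2 had 1505, 1076, 1349.6 and 1172 CPM in the wash, 374, 414, 364 and 333 CPM in the nucleus, 289, 312, 273 and 302 CPM in the cytoplasm, and 396, 339, 328 and 373 CPM in whole cells. Every wash library held more than every library of the other fractions. The log2 fold change was 2.12 ± 0.12 (SE) over the cytoplasm and 1.78 ± 0.12 over the nucleus, with adjusted p = 8.33e-11 and 1.27e-10 in edgeR's quasi-likelihood test. Per kilobase of exon, APLP2 was the most abundant of the 31 in the wash, at 171 ± 25.5 CPM per kb (SD, n = 4). APP itself had 3 exon counts in all 19 libraries together, and 40 counts over its gene body.

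All 9 adhesion genes were higher in the wash than in the cytoplasm with TMM scaling, and all 9 had negative values with spike-in scaling. CD81 and CD151 were not called with gene-body counts, at 0.30 and 0.23, and CD81 was not called within prefix 1 libraries, at 0.40. The integrin chains gave 1.91 ± 0.26 for ITGA4, 1.61 ± 0.39 for ITGA5 and 1.46 ± 0.11 for ITGB1 (log2 fold change, SE). ITGA4 and ITGA5 pair with ITGB1 into the fibronectin receptors of haematopoietic cells. F11R, a junctional adhesion molecule, gave 1.69 ± 0.20, BSG, the chaperone of monocarboxylate transporters, 1.34 ± 0.12, CD47, the signal that restrains phagocytosis, 1.25 ± 0.13, and CD164, a sialomucin of haematopoietic progenitors, 1.22 ± 0.14. The tetraspanins CD81 and CD151, which pass through the membrane several times and organise integrins, had the smallest differences of the 9, 0.64 ± 0.14 and 0.58 ± 0.13. F11R overlaps another annotated gene on its strand, and its counts are uncertain for that reason.

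BSG and CD81 stood further from the nucleus than from the cytoplasm. BSG had 297, 281, 381 and 349 CPM in the wash, 60.65, 51.3, 62.2 and 65.55 CPM in the nucleus, 128, 137, 134 and 117 CPM in the cytoplasm, and 104, 102, 93.3 and 111 CPM in whole cells. CD81 had 68.1, 86.7, 93.8 and 90.4 CPM in the wash, 14.7, 15.04, 19.5 and 19.6 CPM in the nucleus, 64.1, 54.15, 54.9 and 45.2 CPM in the cytoplasm, and 45.3, 35.7, 32.1 and 40.5 CPM in whole cells. For both genes wash, cytoplasm and nucleus did not overlap, with the wash highest and the nucleus lowest. BSG was higher in the wash than in the nucleus by 2.45 ± 0.13 and CD81 by 2.30 ± 0.16, and their nucleus over cytoplasm values were -1.11 ± 0.12 and -1.66 ± 0.16 (log2 fold change, SE).

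The beta subunits of the sodium pump, which bring the assembled pump to the surface, were both higher in the wash with TMM scaling, and both had negative values with spike-in scaling. ATP1B1 gave a log2 fold change over the cytoplasm of 1.19 ± 0.24 at 10.4 ± 3.47 CPM in the wash and 4.65 ± 0.67 CPM in the cytoplasm (SD, n = 4). ATP1B3, the more abundant of the pair, gave 0.55 ± 0.11 at 172 ± 16.8 CPM in the wash and 117 ± 6.14 CPM in the cytoplasm.

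**Figure D1:**
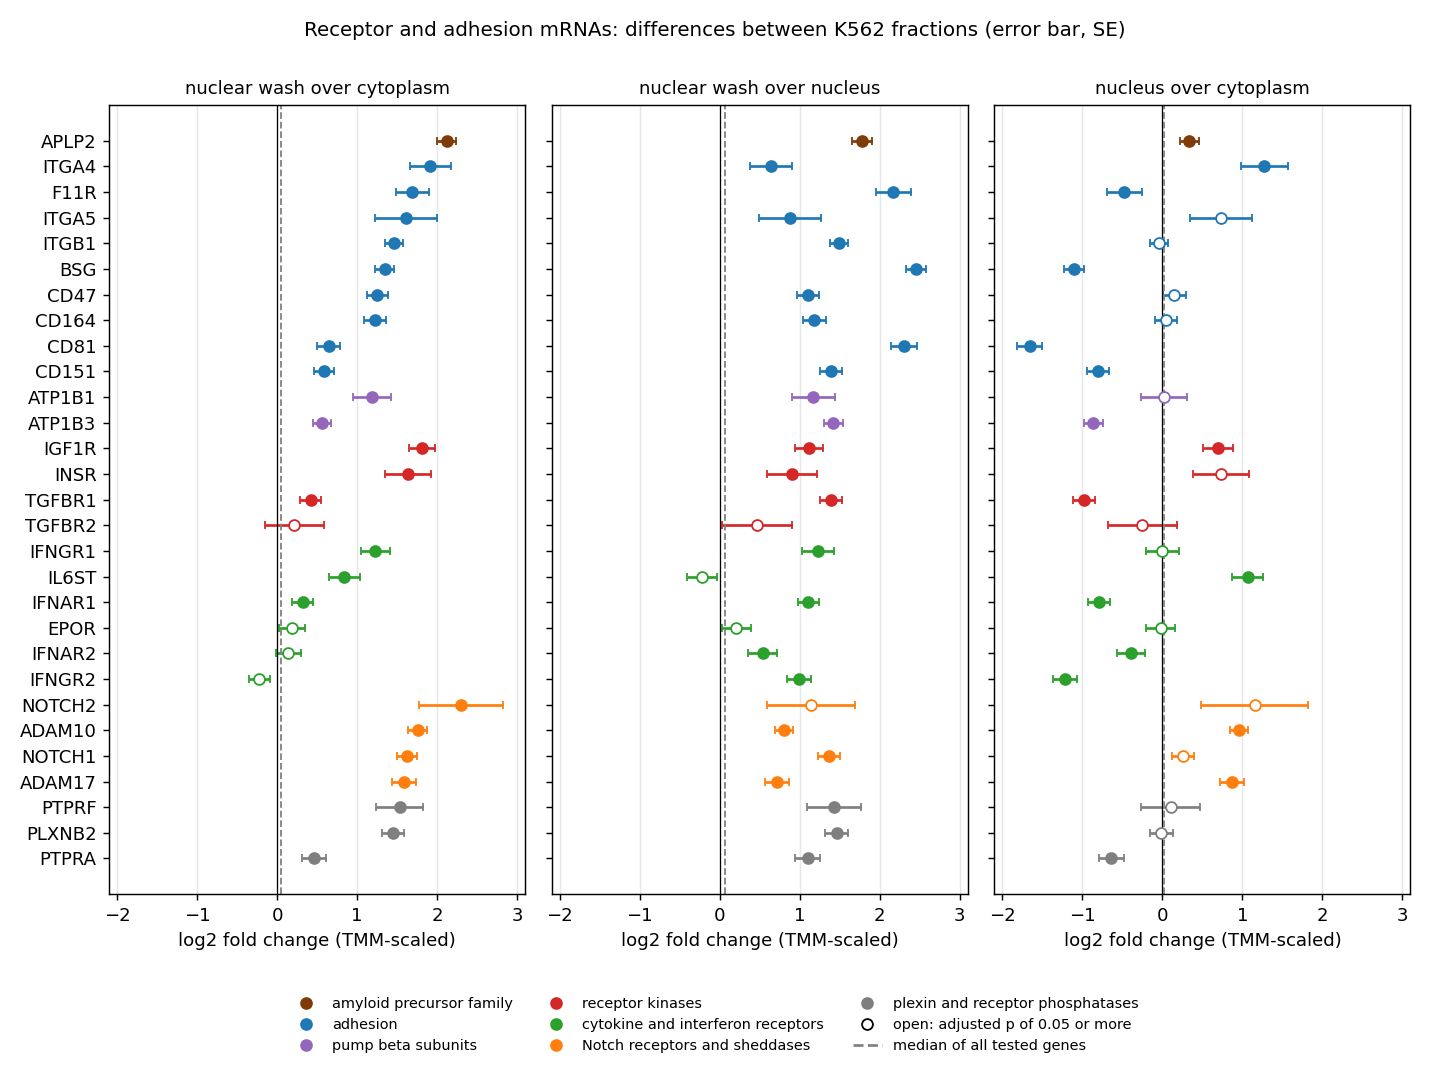
Log2 fold change of the 29 tested genes (points, with SE) in 3 comparisons, with TMM scaling, genes down the page grouped by role and open points for genes that were not called. In the wash over cytoplasm panel 25 points are filled and all of these lie right of 0. With spike-in scaling 28 of the 29 were called lower there, against 14866 of all 15940 genes. In the nucleus over cytoplasm panel 6 filled points lie right and 10 left.

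Of the receptor kinases, INSR and IGF1R, the receptors for insulin and insulin-like growth factor, had the larger differences. IGF1R had 20.9, 24.9, 25.01 and 24.6 CPM in the wash, 12.04, 9.57, 13.25 and 8.77 CPM in the nucleus, 7.10, 7.69, 6.14 and 6.37 CPM in the cytoplasm, and 8.62, 10.9, 7.48 and 11.1 CPM in whole cells. INSR had 3.29, 4.49, 5.50 and 5.09 CPM in the wash, 1.78, 3.08, 2.43 and 2.58 CPM in the nucleus, 0.987, 1.57, 1.76 and 1.55 CPM in the cytoplasm, and 2.62, 1.39, 2.03 and 1.13 CPM in whole cells. For both receptors each wash library lay above all libraries of the nucleus, the cytoplasm and whole cells. The log2 fold change over the cytoplasm was 1.81 ± 0.17 for IGF1R and 1.64 ± 0.29 for INSR (SE), with adjusted p = 3.48e-08 and 0.000116 in edgeR's quasi-likelihood test.

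The receptors for transforming growth factor beta changed less. TGFBR1, the type I kinase, had a log2 fold change of 0.42 ± 0.13 over the cytoplasm, at 223 ± 31.8 CPM in the wash and 167 ± 18.1 CPM in the cytoplasm (SD, n = 4), and its libraries overlapped. TGFBR2, the type II kinase that binds the ligand, was low throughout, with 2.74 ± 1.23 CPM in the wash and 2.24 ± 0.81 CPM in the cytoplasm, and was not called. KIT, the stem cell factor receptor, had 88 exon counts over all 19 libraries. Its level was 1.46, 1.55, 2.31 and 2.44 CPM in the wash, 0.446, 1.03, 1.08 and 2.06 CPM in the nucleus, 1.38, 0.285, 0.293 and 0.466 CPM in the cytoplasm, and 0.375, 0.992, 1.25 and 0.905 CPM in whole cells.

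The cytokine and interferon receptors held 3 of the 4 genes that were not called in the wash over cytoplasm comparison. EPOR, the erythropoietin receptor, had 9.15, 9.60, 10.999 and 11.4 CPM in the wash, 8.92, 9.57, 10.01 and 6.71 CPM in the nucleus, 11.05, 9.26, 8.34 and 7.92 CPM in the cytoplasm, and 10.1, 10.7, 9.97 and 10.6 CPM in whole cells. The EPOR libraries of all 4 fractions overlapped, and EPOR was called in none of the comparisons. Its log2 fold change over the cytoplasm was 0.18 ± 0.16 (SE, adjusted p = 0.377 by edgeR's quasi-likelihood test). EPOR shares exon sequence with RGL3 on its strand, which makes its counts uncertain.

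Each interferon receptor has 2 chains, and both were measured. IFNGR1, the chain that binds interferon gamma, was higher in the wash than in the cytoplasm by 1.23 ± 0.18 (log2 fold change, SE). IFNGR2, its signalling partner, had 24.9, 29.1, 33.7 and 28.5 CPM in the wash, 15.2, 10.9, 15.96 and 17.03 CPM in the nucleus, 33.15, 38.8, 32.8 and 32.0 CPM in the cytoplasm, and 22.5, 24.002, 24.3 and 21.5 CPM in whole cells. Its wash and cytoplasm libraries overlapped, and its nucleus libraries lay below both. IFNGR2 was the only tested gene of the 29 with its highest mean in the cytoplasm, and it gave -0.23 ± 0.13 over the cytoplasm (adjusted p = 0.169 by edgeR's quasi-likelihood test). IFNAR1 gave 0.32 ± 0.13 with adjusted p = 0.0464 in the same test, a call that was lost without any of cytoplasm replicates 1, 3 and 4 and wash replicates 1, 2 and 4. IFNAR2 had 14.6, 12.7, 13.7 and 12.0 CPM in the wash, 8.03, 7.18, 10.01 and 11.35 CPM in the nucleus, 11.05, 11.7, 12.1 and 12.9 CPM in the cytoplasm, and 13.1, 11.7, 9.97 and 9.05 CPM in whole cells. Its wash libraries overlapped those of the cytoplasm and lay above those of the nucleus, and the log2 fold change over the cytoplasm was 0.14 ± 0.16. IFNAR2 shares exon sequence with another annotated gene on its strand, so its counts are uncertain. IL10RB, a related receptor chain whose gene lies beside IFNAR2 and IFNAR1, gave 1.10 ± 0.18. The difference between the chains of a receptor was not tested.

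IL6ST, the shared signalling chain of the interleukin 6 family, was highest in the nucleus. It had 67.3, 92.1, 49.0 and 47.8 CPM in the wash, 88.7, 72.5, 70.6 and 68.1 CPM in the nucleus, 39.3, 38.05, 35.7 and 30.3 CPM in the cytoplasm, and 49.5, 68.2, 59.7 and 40.7 CPM in whole cells. Wash and nucleus each lay above all cytoplasm libraries and overlapped with each other. The log2 fold change was 0.84 ± 0.19 for wash over cytoplasm, 1.06 ± 0.19 for nucleus over cytoplasm and -0.22 ± 0.19 for wash over nucleus (SE). Without wash replicate 2, the wash over nucleus value was -0.44 and was called lower.

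**Figure D2:**
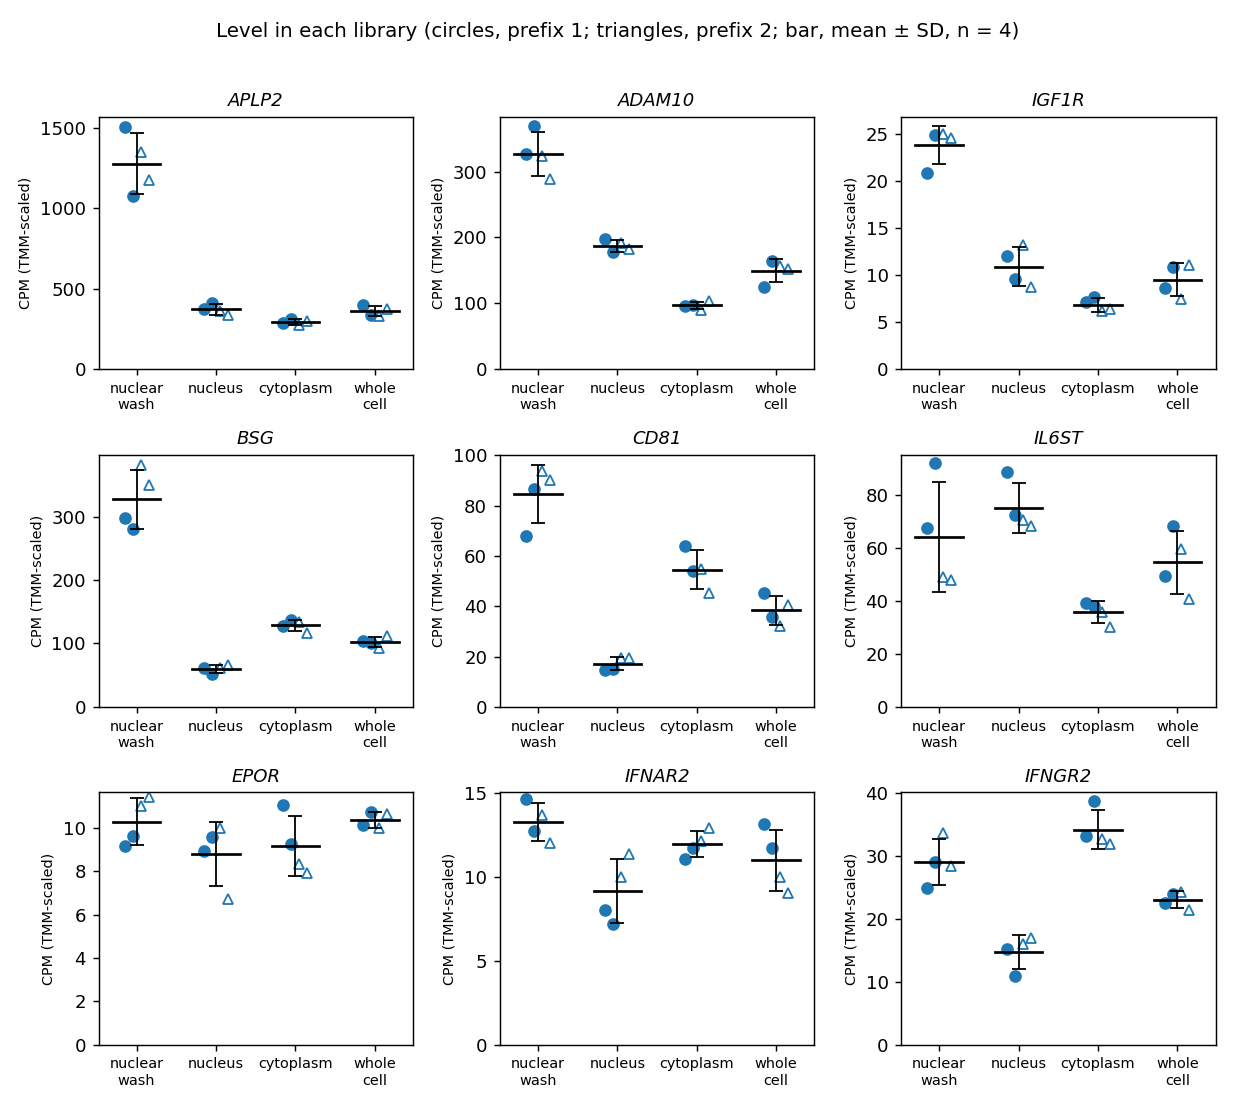
Level of 9 genes in CPM (TMM-scaled, axis from 0) in each depleted library by fraction, with circles for column prefix 1, triangles for column prefix 2 and bars for mean ± SD of 4 libraries. APLP2, ADAM10, IGF1R, BSG and CD81 have every wash library above every other library, IL6ST has its highest mean in the nucleus, and IFNGR2 has its highest mean in the cytoplasm.

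The Notch receptors and the sheddases that cut them were all higher in the wash than in the cytoplasm with TMM scaling, and all 4 had negative values with spike-in scaling. The TMM-scaled differences were 1.62 ± 0.13 for NOTCH1, 2.30 ± 0.52 for NOTCH2, 1.75 ± 0.11 for ADAM10 and 1.58 ± 0.15 for ADAM17 (log2 fold change, SE). ADAM10 had 326.5, 369, 324 and 288 CPM in the wash, 198, 177, 192 and 183 CPM in the nucleus, 96.5, 96.9, 90.6 and 103.5 CPM in the cytoplasm, and 124, 164, 157 and 152.5 CPM in whole cells. ADAM17 had 138, 162, 192 and 162 CPM in the wash, 77.6, 94.7, 113.6 and 113.5 CPM in the nucleus, 46.4, 50.7, 56.9 and 64.9 CPM in the cytoplasm, and 57.3, 65.5, 80.2 and 73.1 CPM in whole cells. Wash, nucleus and cytoplasm of both sheddases did not overlap and stood in the same order, wash highest and cytoplasm lowest. NOTCH2 rested on few reads, with 3.29, 3.87, 2.31 and 2.44 CPM in the wash and 0, 0.57, 1.02 and 0.621 CPM in the cytoplasm.

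PLXNB2, a semaphorin receptor, gave 1.45 ± 0.13 over the cytoplasm, and the receptor phosphatase PTPRF gave 1.53 ± 0.30 at 8.47 ± 2.17 CPM in the wash and 3.01 ± 0.71 CPM in the cytoplasm (SD, n = 4). PTPRA, the other receptor phosphatase, gave 0.46 ± 0.15, and its libraries overlapped. The PTPRA call was lost without cytoplasm replicate 1 and without wash replicate 3, and the TGFBR1 call without cytoplasm replicate 3 and without wash replicate 3. PTPRA shares exon sequence with VPS16 on its strand and is uncertain for that reason.

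In the nucleus over cytoplasm comparison the 29 genes went both ways, with 6 higher, 10 lower and 13 not called, against 76.8% of all genes called, 39.3% higher and 37.5% lower. In 7 genes every nucleus library lay above every cytoplasm library and in 8 below, against 36.3% and 35.2% of all genes. Their median log2 fold change was 0.00, and that of all genes 0.02. The higher genes were ITGA4 at 1.27 ± 0.29, IL6ST, ADAM10 at 0.95 ± 0.11, ADAM17 at 0.87 ± 0.15, IGF1R at 0.69 ± 0.19 and APLP2 at 0.34 ± 0.12. ITGA4 had 8.42, 9.14, 6.92 and 7.73 CPM in the wash, 5.80, 4.10, 4.87 and 6.19 CPM in the nucleus, 1.58, 2.42, 2.34 and 2.02 CPM in the cytoplasm, and 6.37, 2.38, 3.58 and 3.85 CPM in whole cells. Its cytoplasm libraries lay below those of the wash and the nucleus. Besides CD81 and BSG, the lower genes were IFNGR2 at -1.22 ± 0.15, TGFBR1 at -0.98 ± 0.14, ATP1B3 at -0.86 ± 0.12, CD151 at -0.81 ± 0.14, IFNAR1 at -0.79 ± 0.13, PTPRA at -0.64 ± 0.15, F11R at -0.48 ± 0.22 and IFNAR2 at -0.40 ± 0.18. The IFNAR2 call was lost without any of cytoplasm replicates 1, 3 and 4 and nucleus replicates 1, 2 and 3, and in the paired fit with a replicate block. The F11R call was lost without any of nucleus replicates 1 and 2 and cytoplasm replicates 3 and 4, and the APLP2 call without cytoplasm replicate 3. ITGA5, at 0.73 ± 0.39, was not called here and was called at 0.71 in the paired fit. The direction in the nucleus depended on the scaling. With no composition factor 17 of the 29 were higher and 4 lower, against 8496 higher and 3762 lower of all 15940 genes. With spike-in scaling 0 were higher and 16 lower, against 4320 higher and 8117 lower of all genes. Counted over gene bodies instead of exons, APLP2 gave -0.40, PTPRA 0.75 and IFNAR2 1.99 in this comparison.

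Relative to the nucleus, 25 of the 29 were higher in the wash and none lower, with a median log2 fold change of 1.14, against 72.1% of all genes called, 36.7% higher and 35.4% lower. The wash libraries lay above the nucleus libraries without overlap in 24 of the 29 and below in none, against 31.7% of all genes above and 30.6% below. F11R, at 2.17 ± 0.22, followed BSG and CD81, and EPOR, TGFBR2, NOTCH2 and IL6ST were not called. ITGA5 at 0.88 ± 0.39 and ITGA4 at 0.64 ± 0.26 lost their calls without single libraries, ITGA5 without any of nucleus replicates 1 and 2 and wash replicates 3 and 4, and ITGA4 without any of wash replicate 2 and nucleus replicates 2 and 3. The call of IFNAR2, at 0.53 ± 0.18, was lost without nucleus replicate 2. With gene-body counts IGF1R gave -0.64, IFNAR2 -1.52 and PTPRA -0.39, and the calls of ITGA4, INSR, ADAM10, ADAM17 and IFNGR2 were lost. Spike-in scaling turned the direction here too, with 26 of the 29 lower in the wash, against 14908 of all 15940 genes. With no composition factor 16 were higher and 2 lower, against 2894 higher and 8360 lower of all genes. Relative to whole cells, 24 of the 29 were higher and none lower, with a median of 1.16. With spike-in scaling all 29 were lower, as were all 15940 genes. With TMM scaling 34.4% of all genes were called, 14.6% higher and 19.7% lower. In 22 of the 29 the wash libraries all lay above the whole cell libraries and in none below, against 12.9% and 16.2% of all genes. The ITGA5 call was lost without any of whole cell replicates 1 and 2 and wash replicates 3 and 4, and IFNGR2, at 0.34 ± 0.14, was called in the paired fit. The wash libraries enter all 3 of these comparisons. By call, 23 of the genes were higher in the wash than in the cytoplasm, the nucleus and whole cells, and 26 of the 29 had their highest mean in the wash. Neither count was made over all genes, so how unusual they are cannot be judged.

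The mRNAs of proteins that work with these receptors were read in the same fit. Of 28 tested mRNAs for cytosolic partners, such as kinases, adaptors and transcription factors that act downstream, 5 were higher in the wash than in the cytoplasm and 7 lower, with a median log2 fold change of -0.11. Of 25 tested mRNAs for membrane or secreted partners, 22 were higher and none lower, with a median of 1.08. Among the cytosolic partners the largest differences were 1.23 ± 0.11 for VCL and 0.68 ± 0.13 for TLN1, which link integrins to actin. The smallest were -1.01 ± 0.12 for PTPN11, a phosphatase that binds activated receptors, and -0.82 ± 0.17 for PARVB, a partner of integrin-linked kinase. VCL had 810, 672, 721 and 690 CPM in the wash against 291, 280, 317 and 344 CPM in the cytoplasm, and PTPN11 had 215.9, 216.2, 159.8 and 164.2 CPM in the wash against 397, 394, 369 and 366 CPM in the cytoplasm. Neither pair of groups overlapped.

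Among the membrane partners the largest differences were those of NCSTN, a gamma-secretase subunit, at 1.93 ± 0.26, and ITGA2B, the integrin chain of megakaryocytes, at 1.92 ± 0.33. ITGAE and APH1A had the smallest values at a mean of 5 CPM or more, -0.33 ± 0.21 and -0.10 ± 0.16, and were not called. The cytosolic kinase JAK2, which transmits the EPOR signal, fell by 0.43 and the transcription factor SMAD2, a TGFBR1 substrate, fell by 0.51 on the log2 scale in the wash relative to the cytoplasm. RBPJ, the nuclear partner of cleaved Notch, fell by 0.45. JAK2, SMAD2 and RBPJ were picked after their values were seen and do not stand for their list. Of its 28 tested mRNAs, 5 were higher, 7 lower and 16 not called. In the nucleus over cytoplasm comparison, 6 cytosolic partners were higher and 16 lower, and 5 membrane partners were higher and 7 lower. The lists were not tested against each other.

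**Figure D3:**
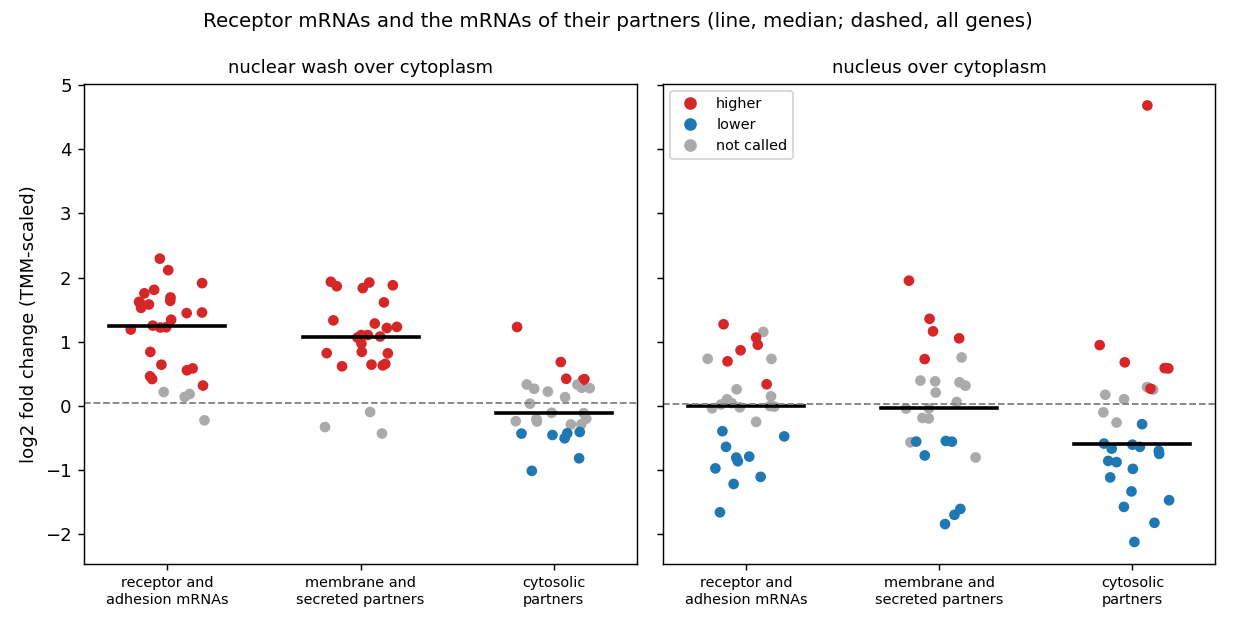
Log2 fold change of each tested mRNA (points, coloured by call, TMM scaling) for the receptor and adhesion genes, their membrane or secreted partners and their cytosolic partners, with list medians as lines and the median of all genes dashed. In the wash over cytoplasm panel the medians are 1.25, 1.08 and -0.11, and in the nucleus over cytoplasm panel they are 0.00, -0.04 and -0.60.

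Intronic reads separated the nucleus from the wash. The intronic share is the part of a gene's gene-body count that is not in its exon count, given where a gene had at least 10 gene-body counts in every library compared. Summed over the 31 genes it was 9.72 to 15.7% in the wash, 64.8 to 72.2% in the nucleus and 9.25 to 12.0% in the cytoplasm. By replicate, 1 to 4, it was 13.8, 15.7, 9.72 and 9.78% in the wash and 12.0, 11.2, 9.25 and 9.83% in the cytoplasm. Wash replicates 1 and 2 were thus the higher ones. These sums had no count minimum and included F11R and IFNAR2. All 25 genes that could be compared had a higher share in each nucleus library than in each cytoplasm library, and none a lower one, against 82.0% of 11474 genes higher and 2.20% lower. All 27 genes that could be compared had a lower share in the wash than in the nucleus without overlap, against 74.6% of 11876 genes lower and 1.42% higher. In the wash the share lay above the cytoplasm without overlap in 6 of 25 genes, below it in 1 and overlapped in 18, against 54.0% of 11895 genes above and 1.37% below. The 6 were CD164, ATP1B1, ATP1B3, TGFBR2, IFNGR2 and IFNAR1, and the 1 below was ADAM10. The median over those 25 genes was 13.3% in the wash and 10.6% in the cytoplasm, and over all 11895 genes 30.1% in the wash and 13.7% in the cytoplasm. F11R and IFNAR2 gave negative shares in some libraries, because their exon counts exceeded their gene-body counts, and were left out of the comparisons by gene.

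Single genes varied widely around these medians. Of the 25 genes compared, IFNGR2 had the highest share in the cytoplasm, with 64.2% ± 5.15 in the wash, 91.7% ± 2.02 in the nucleus and 44.0% ± 2.83 in the cytoplasm (SD, n = 4). ATP1B3 had 37.0% ± 5.11, 85.1% ± 1.08 and 17.7% ± 4.40 in the same order of fractions. ADAM10 had 16.8% ± 1.84 in the wash, 74.3% ± 4.26 in the nucleus and 21.2% ± 2.92 in the cytoplasm. APLP2, NOTCH1 and CD151 were nearly free of intronic reads in the wash, at 3.52, 3.66 and 0.864%. The strand setting of the counting is not given in the sources used here, and 13 of the 31 genes have exons that overlap a gene on the other strand.

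**Figure D4:**
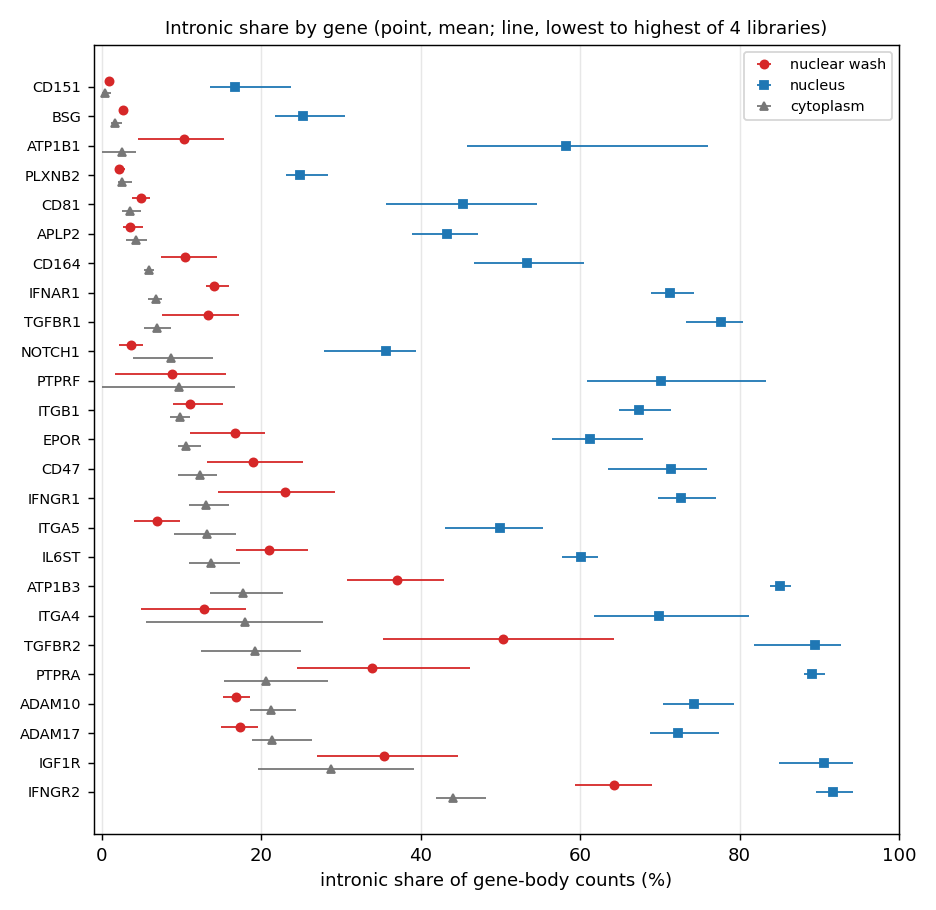
Intronic share of gene-body counts (%) of 25 genes in the wash (circles), nucleus (squares) and cytoplasm (triangles), as the mean with a line from the lowest to the highest of 4 libraries. The nucleus lies right of the cytoplasm in every gene, and the wash and cytoplasm lines overlap in 18 genes.

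Genes with a longer summed exon length had the larger differences from the cytoplasm. This length joins every annotated exon of a gene, so it can exceed that of any single mRNA. Spearman's rho between summed exon length and the wash over cytoplasm log2 fold change was 0.71 over the 29 genes, whose values come from the same 8 libraries, and 0.24 over 11253 tested coding genes. For the nucleus over cytoplasm fold change rho was 0.75 over the 29 genes and 0.36 over the coding genes. For the wash over the nucleus it was -0.15 and -0.30. The 10 longest of the 29, from ITGA4 to NOTCH2 with 7901 to 16807 exon bases, had a median wash over cytoplasm value of 1.63, and the 10 shortest, from ATP1B3 to TGFBR2 with 2584 to 4704 bases, had 0.51. Among the 10 shortest, BSG at 1.34, IFNGR1 at 1.23 and ATP1B1 at 1.19 had values near or above the median of the 29, and among longer genes TGFBR1 with 6844 bases gave 0.42 and CD81 with 7394 bases gave 0.64. Median exon length was 6844 bases for the 31 genes, 6773 for the cytosolic partners and 6397 for the membrane partners, and rho was 0.16 over each partner list in the wash over cytoplasm comparison. With coding length in codons instead, rho in that comparison was 0.52 over the 29 genes and 0.36 over the coding genes. Over the cytosolic and the membrane partners it was 0.38 and 0.35, so a relation with coding length was not particular to the 29 genes. These are descriptions, since the genes were not sampled independently.

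**Figure D5:**
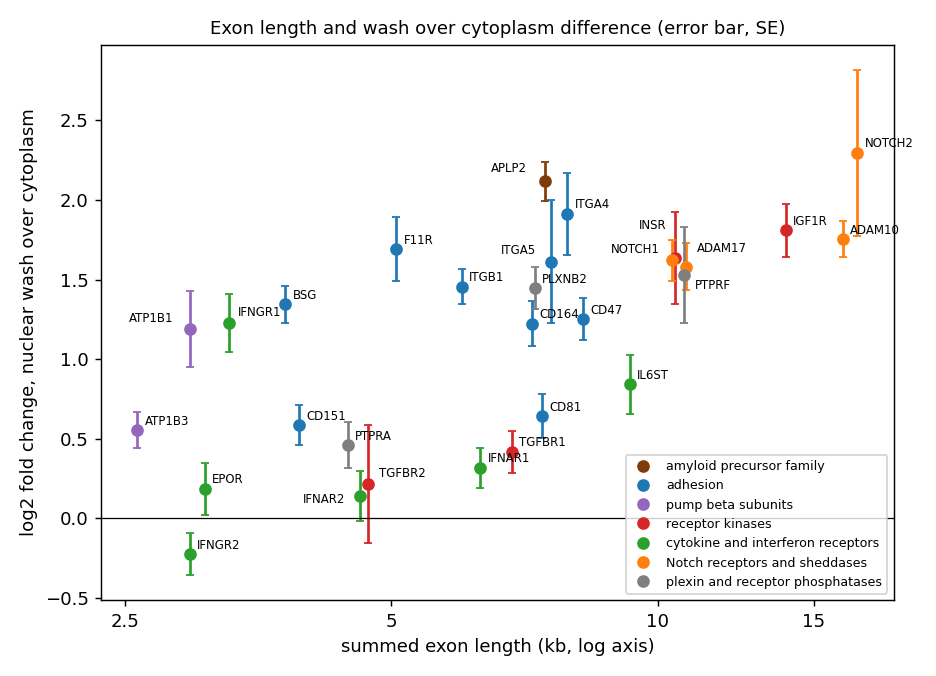
Summed exon length (kb, log axis) against the log2 fold change of the nuclear wash over the cytoplasm (points with SE, TMM scaling) for the 29 tested genes, coloured by role. The 10 longest genes have values of 0.84 to 2.30 and the 10 shortest of -0.23 to 1.34.

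The coding starts did not order the genes in the same way. Spearman's rho between the share of codons with T at the middle position, in the sequences of the kind printed above, and the wash over cytoplasm log2 fold change was -0.21 over the 29 genes, and that with the share of A was -0.18. IFNAR2, with the highest share of such codons, was not called, and ATP1B1 and ITGA5, which share the lowest, 16.7%, gave 1.19 and 1.61. Both shares cover the start of the coding sequence alone, and a targeting segment can lie partly or wholly beyond it. A low share therefore need not mean a weak targeting segment, and whether the segment itself orders the genes was not tested. By topology, the 24 tested genes with a signal peptide and a single membrane pass had a median of 1.45, the 2 tetraspanins 0.61 and the 2 signal-anchor subunits 0.87, and these small groups were not tested against each other.

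Leaving out the depletion of ribosomal RNA moved some of these mRNAs, with more called lower than higher. Of all genes, more were called higher than lower. Of 27 tested, 1 was higher and 4 lower in the undepleted than in the depleted wash, against 11.1% of 11627 genes called, 7.75% higher and 3.35% lower. The groups did not overlap in 7 of the 27, with 2 higher, against 14.2% of all genes higher and 13.0% lower. CPM values here were scaled within the 7 wash libraries. BSG had 328.5, 444.5 and 372 CPM in the undepleted wash against 219, 201, 268 and 251 CPM in the depleted wash, and a log2 fold change of 0.70 ± 0.17 (SE). F11R had 51.75, 62.4 and 63.9 CPM in the undepleted wash against 76.4, 91.3, 142 and 125.5 CPM in the depleted wash, and fell by 0.87. CD47 fell by 0.79, ADAM10 by 0.73 and CD164 by 0.68, and none of these 5 genes had overlapping groups. Each of the 5 calls was lost in 3 to 6 of 7 fits that left out a library, and all 5 were lost without undepleted replicate 2 and without undepleted replicate 3. Further losses came without depleted replicate 2 for BSG, depleted replicate 3 for CD47, depleted replicates 1, 2 and 3 for ADAM10, depleted replicates 3 and 4 and undepleted replicate 1 for F11R, and depleted replicates 2, 3 and 4 and undepleted replicate 1 for CD164. TGFBR1 was called lower, at -0.69, in the fit with the column prefix as a block. The directions moved with the scaling. With no composition factor 0 of the 27 were higher and 11 lower, against 401 higher and 3570 lower of all 11627 genes. With spike-in scaling 0 were higher and 1 lower, against 330 higher and 141 lower of all genes.

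The column names carry prefixes that divide the depleted libraries into replicates 1 and 2 and replicates 3 and 4, and the labels do not say what a prefix stands for. ITGA5 followed this division in every fraction. It had 97.7, 100.5, 299.8 and 279.9 CPM in the wash, 68.7, 62.2, 153 and 139 CPM in the nucleus, 41.6, 41.5, 95.5 and 75.96 CPM in the cytoplasm, and 64.8, 54.55, 111 and 135.5 CPM in whole cells. In each of these fractions the prefix 2 libraries lay above the prefix 1 libraries. Averaged over the fractions, ITGA5 was higher in prefix 2 than in prefix 1 libraries by a log2 difference of 1.20 ± 0.07 (SE, adjusted p = 5.89e-12 in edgeR's quasi-likelihood test), where 22.9% of all genes were called in either direction. F11R was higher in prefix 2 by 0.56, ADAM17 by 0.32 and PTPRA by 0.22, while IL6ST fell by 0.35 and NOTCH1 by 0.23. Within prefix 1 libraries 21 of 28 tested genes were higher in the wash than in the cytoplasm and none lower, against 2966 higher and 3119 lower of all 15345 genes. Within prefix 2 libraries 24 of 30 were higher and none lower, against 3170 higher and 3221 lower of all 16893 genes. The 30 include a gene that was not tested in the main fit. The calls of CD81, TGFBR1, IFNAR1 and PTPRA were lost within prefix 1, and those of NOTCH2 and IFNAR1 within prefix 2.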

How the data were processed

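The authors deposited raw read counts per gene for 19 libraries, over exons with 11 yeast spike-in transcripts and over whole gene bodies. Tools listed in the submitters' processing notes are featureCounts 1.6.2, STAR 2.7.0a and cutadapt 2.5, with build hg38. Neither the annotation release nor the strand setting nor the handling of shared reads is given in the sources used here. Extraction used Trizol LS, per the labels' protocols, with spike-ins added and stranded libraries made. Symbols, lengths and coding sequences came from GENCODE release 29 on GRCh38, which matched 57447 of 58051 identifiers. No column was left unused.

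From the exon counts, edgeR 4.0.16 (R 4.3.3) gave quasi-likelihood tests after TMM scaling and filterByExpr. The 16 depleted libraries shared 1 fit with a term per fraction (15940 genes), and the 7 wash libraries another (11627 genes). Benjamini-Hochberg adjustment ran across every gene of a fit, and genes under 0.05 were called. Spike-ins stayed out of library sizes and tests. The script was tested on simulated data.

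The genes and lists were chosen with earlier results of these data known. All 31 genes are named. Values in every library are given for the 3 largest and 3 smallest log2 fold changes at a mean of 5 CPM or more in the comparisons of wash and nucleus with cytoplasm, for genes called against the majority, and for INSR, IGF1R, KIT and EPOR. Other genes whose values are printed were chosen after their values were seen, except 2 partners at each end of each list and the landmarks. A planned measure of hydrophobicity along the protein was replaced by the codon shares, since no protein table was used here.

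Same-numbered depleted libraries deviated together, with correlations of 0.122 to 0.379 between their deviations from the group means, and same-prefix wash libraries with 0.193 to 0.417, so a paired fit with a replicate block was run as an alternative, together with DESeq2 1.42.0, other scalings, other filters, gene-body counts, prefix subsets and leaving out each library. No pair of libraries had identical counts. The labels mention no molecular identifiers, so counts may include PCR copies.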

Additional observations from a re-analysis of the deposited data

Results flagged for a closer look

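In 4 of 116 sets of 4 libraries, formed by gene and depleted fraction, 1 library stood apart from the other 3 by a gap that, as a share of the range of the set, passed Dixon's 95% critical value. Chance gives this in about 1 in 20 sets. ITGB1, the common beta chain of the fibronectin receptors, had 140.8 CPM in nucleus replicate 2 and 178 to 183 CPM in the other nucleus libraries. IGF1R had 20.9 CPM in wash replicate 1 and 24.6 to 25.01 CPM in the others. IFNGR2 had 38.8 CPM in cytoplasm replicate 2 and 32.0 to 33.1 CPM in the others. PTPRF had 1.03 CPM in nucleus replicate 4 and 3.52 to 4.01 CPM in the others.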

How the results depend on the processing

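RLE factors, DESeq2, no filter on low counts, removal of mitochondrial and rRNA genes, and fits of only the compared groups changed no sign of a called gene, but changed calls. In wash over nucleus RLE factors gave 22 higher, without ITGA4, ITGA5 and IFNAR2, and DESeq2 gave 21, without INSR as well. In nucleus over cytoplasm RLE factors gave 9 higher and 8 lower and DESeq2 7 and 8, and both lost F11R and IFNAR2. In wash over whole cell DESeq2 lost ITGA5. Without mitochondrial and rRNA genes IFNAR1 was lost in wash over cytoplasm, and without them or with only the compared groups F11R and IFNAR2 were lost in nucleus over cytoplasm and ITGA5 in wash over nucleus. With only the compared groups ITGA4 and IFNAR2 were lost in wash over nucleus too. With no filter on low counts APLP2 was lost in nucleus over cytoplasm, at 0.18. The paired fit with the replicate block gave 25 higher and 0 lower in wash over cytoplasm, 7 higher and 9 lower in nucleus over cytoplasm, 25 higher and 0 lower in wash over nucleus, 25 higher and 0 lower in wash over whole cell, and 1 higher and 5 lower in undepleted over depleted wash. In it ITGA5 in nucleus over cytoplasm (0.71), IFNGR2 in wash over whole cell (0.34) and TGFBR1 in undepleted over depleted wash (-0.69) were called, and IFNAR2 in nucleus over cytoplasm (-0.40) was not. The block changed no other call of these genes. With no composition factor, nucleus over cytoplasm gave 17 higher and 4 lower, wash over nucleus 16 higher and 2 lower, and undepleted over depleted wash 0 higher and 11 lower. In the same order, all genes gave 8496 higher and 3762 lower, 2894 and 8360, and 401 and 3570. With spike-in library sizes the counts were 0 higher and 28 lower in wash over cytoplasm, 0 and 16 in nucleus over cytoplasm, 0 and 26 in wash over nucleus, 0 and 29 in wash over whole cell, and 0 and 1 in undepleted over depleted wash. In the same order, all genes gave 3 higher and 14866 lower, 4320 and 8117, 19 and 14908, 0 and 15940, and 330 and 141. With gene-body counts wash over cytoplasm gave 22 higher of 30 tested, and wash over nucleus gave 19 higher and 4 lower (IGF1R, TGFBR2, IFNAR2 and PTPRA). There were 11 higher in nucleus over cytoplasm, 1 lower in wash over whole cell (IFNAR2) and 0 lower in undepleted over depleted wash. Within prefix 1, undepleted over depleted wash gave 0 higher and 0 lower, with 1 undepleted library whose spread was taken from the others. Within prefix 2 it gave 2 higher, and wash over nucleus gave 1 lower, IL6ST. Leaving out 1 library gave 0 to 1 lower in wash over nucleus, and 0 to 1 higher and 0 to 3 lower in undepleted over depleted wash. Raising the gene-body minimum to 50 counts moved the median intronic share in the wash to 13.4%, against 14.1%. Over all genes, the share of higher among calls with no composition factor was 69.3% in nucleus over cytoplasm, 25.7% in wash over nucleus, 15.9% in wash over whole cell and 10.1% in undepleted over depleted wash, against 51.2, 50.9, 42.6 and 69.8% with TMM. With spike-in library sizes it was 34.7% in nucleus over cytoplasm, 0.0202% in wash over cytoplasm (51.6% with TMM), 0.127% in wash over nucleus and 0 in wash over whole cell. Apart from the construction of each setting, the cause of these shifts was not tested. Depth limits APP, KIT, NOTCH2, TGFBR2 and INSR most.

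Log2 fold changes that changed sign follow by setting. The median of all genes with spike-in library sizes was -3.10 in wash over cytoplasm, -0.60 in nucleus over cytoplasm, -2.47 in wash over nucleus and -4.51 in wash over whole cell. With these sizes wash over cytoplasm gave a median of -1.91 over the genes, and -1.06 for APLP2, -1.21 for ITGA4, -1.62 for ITGA5, -1.71 for ITGB1, -1.91 for CD47, -2.55 for CD81, -2.60 for CD151, -1.96 for CD164, -1.86 for BSG, -1.99 for ATP1B1, -2.60 for ATP1B3, -1.51 for INSR, -1.36 for IGF1R, -3.01 for EPOR, -2.76 for TGFBR1, -2.92 for TGFBR2, -1.53 for NOTCH1, -0.77 for NOTCH2, -1.39 for ADAM10, -1.58 for ADAM17, -1.75 for PLXNB2, -2.28 for IL6ST, -1.94 for IFNGR1, -2.84 for IFNAR1, -3.02 for IFNAR2, -1.51 for F11R, -2.74 for PTPRA, -1.66 for PTPRF. Nucleus over cytoplasm gave -0.30 for APLP2, -0.49 for CD47, -0.59 for CD164. Wash over nucleus gave a median of -1.38 over the genes, and -0.76 for APLP2, -1.88 for ITGA4, -1.80 for ITGA5, -1.05 for ITGB1, -1.42 for CD47, -0.26 for CD81, -1.14 for CD151, -1.37 for CD164, -0.12 for BSG, -1.38 for ATP1B1, -1.10 for ATP1B3, -1.64 for INSR, -1.42 for IGF1R, -2.34 for EPOR, -1.14 for TGFBR1, -2.07 for TGFBR2, -1.15 for NOTCH1, -1.34 for NOTCH2, -1.72 for ADAM10, -1.85 for ADAM17, -1.10 for PLXNB2, -1.33 for IFNGR1, -1.56 for IFNGR2, -1.41 for IFNAR1, -2.01 for IFNAR2, -0.43 for F11R, -1.47 for PTPRA, -1.12 for PTPRF. Wash over whole cell gave a median of -3.27 over the genes, and -2.59 for APLP2, -3.33 for ITGA4, -3.47 for ITGA5, -3.25 for ITGB1, -3.37 for CD47, -3.27 for CD81, -3.38 for CD151, -3.12 for CD164, -2.76 for BSG, -3.18 for ATP1B1, -3.52 for ATP1B3, -2.98 for INSR, -3.09 for IGF1R, -3.68 for TGFBR1, -3.91 for TGFBR2, -3.21 for NOTCH1, -2.26 for NOTCH2, -3.27 for ADAM10, -3.19 for ADAM17, -3.26 for PLXNB2, -4.11 for IL6ST, -3.21 for IFNGR1, -4.08 for IFNGR2, -3.87 for IFNAR1, -4.12 for IFNAR2, -2.69 for F11R, -3.84 for PTPRA, -3.22 for PTPRF. With no composition factor the median of all genes was 0.63 in nucleus over cytoplasm, where the values were 0.57 for ITGB1, 0.58 for EPOR, 0.59 for PLXNB2, 0.61 for IFNGR1, 0.22 for IFNAR2, 0.15 for F11R. It was -0.60 in wash over nucleus, where they were -0.018 for ITGA4, -0.46 for EPOR, -0.14 for IFNAR2. With gene-body counts nucleus over cytoplasm gave -0.40 for APLP2, -0.43 for CD164, 0.11 for ATP1B3, 1.32 for TGFBR2, -0.72 for NOTCH1, 0.063 for IFNGR2, 1.99 for IFNAR2, 0.75 for PTPRA. Wash over nucleus gave -0.0044 for INSR, -0.64 for IGF1R, -0.76 for TGFBR2, -0.0054 for IFNGR2, -1.52 for IFNAR2, -0.39 for PTPRA, and wash over whole cell gave -0.18 for IGF1R, -0.77 for IFNAR2, -0.10 for PTPRA.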
